A study of Mus musculus with 24 samples.

Results

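The genes described here are 9 genes of mitochondrial fatty acid oxidation, ketone metabolism and their control: Cpt1a, Cpt2, Acadl, Acadm, Hadha, Bdh1, Ppara, Angptl4 and Pdk4. They were taken by gene name from a table of 54532 genes measured in mouse retinal pigment epithelium (RPE), and all 9 were among the 18065 genes with enough counts to be tested. Across 1 day Cpt1a, the gate for long-chain fatty acids into mitochondria, had its highest mean at light onset and its lowest 9 h later. This fall was called over all 24 libraries, but not in most of the fits that left out 1 library. Angptl4, an inhibitor of lipoprotein lipase, was lower at night than by day. Without 2 libraries that stood apart from the rest, Ppara was higher at night, Acadl rose toward the middle of the light phase, and Acadm and Pdk4 also varied over time, while Cpt2, Hadha and Bdh1 were called in no edgeR test over all 24 libraries or without that pair.

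The RPE is the pigmented cell layer behind the photoreceptors, which engulfs the tips of their outer segments. Every mouse was wild type, of the 129S1/SvlmJ strain on the Rpe65 Leu450 background, fed a standard diet and kept with 12 h of light and 12 h of darkness each day. RNA from 24 mice was sequenced, 3 at each of 0, 1, 3, 5, 6, 9, 15 and 16 h after light onset at 7 am, and the age of the mice is not given in the sources used here. Times from 1 h to 9 h are called day here and 15 h and 16 h night. There was no other genotype, treatment or diet.

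Outer segments are rich in lipid, and the fatty acids they release are a fuel for the RPE. Long-chain fatty acids enter mitochondria as carnitine esters, made by Cpt1a on the outer membrane and turned back into acyl-CoA by Cpt2 on the inner membrane. Acyl-CoA dehydrogenases such as Acadl and Acadm and the trifunctional protein, of which Hadha is a subunit, then shorten the chain. The acetyl-CoA formed can be made into ketone bodies, and Bdh1 interconverts acetoacetate and beta-hydroxybutyrate. Ppara is a nuclear receptor for fatty acids that drives many of these genes in liver, and Angptl4 and Pdk4 are well known targets of PPAR receptors.

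The libraries held 14073440 to 17492470 counts. Levels are given as CPM, each count divided by the TMM-scaled library size (trimmed mean of M-values). Markers of the RPE (8 of 8 tested, Rpe65 among them) summed to 32665 to 47643 CPM in 22 libraries, and none was at 0 in any library. The other two, mouse 3 of 6 h and mouse 3 of 15 h, lay away from these 22 on the leading principal component (38.2% of the variance). In the latter, RPE markers summed to 111212 CPM. Red blood cell markers summed to 3326 and 8767 CPM in this pair, against 399 to 1925 CPM in the rest. The tests were therefore run over all 24 libraries and over the 22, with no gene removed.

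In the 2 libraries several of the genes lay outside the range of the 22. Ppara stood at 1.26 CPM (mouse 3 of 6 h) and 1.89 CPM (mouse 3 of 15 h), below the 4.90 to 11.5 CPM of the 22. Cpt1a, at 180.2 and 157 CPM, also lay below all 22, whose lowest value was 189 CPM. In mouse 3 of 15 h Cpt2 reached 119.7 CPM against at most 67.5 CPM elsewhere, and Hadha (224 CPM) and Bdh1 (39.6 CPM) were also above all 22. Acadm (89.9 and 83.7 CPM) was above the 22 in both libraries, and Acadl (177 CPM) in mouse 3 of 6 h. Many other genes also deviated from their mean log2 CPM of the 22. Of all genes tested, 0.814% (6 h) and 13.9% (15 h) deviated lower than Ppara, and 15.9% and 32.8% lower than Cpt1a. At 15 h 80.5% deviated lower than Cpt2, 65.9% than Hadha and 70.3% than Bdh1. The shares were 74.5% (6 h) and 63.3% (15 h) for Acadm and 72.4% (6 h) for Acadl.

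**Figure D1:**
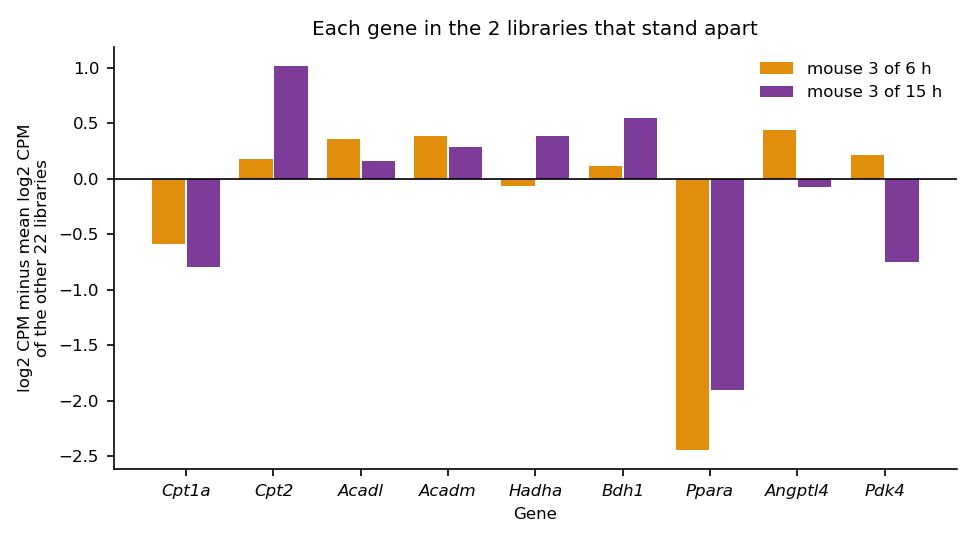
Bars give the log2 CPM of each gene (x axis) for mouse 3 of 6 h (orange) and mouse 3 of 15 h (purple), minus the mean log2 CPM of the remaining 22 libraries (y axis). Ppara lies at -2.44 and -1.90, and Cpt2 at 1.02 in the purple bar against 0.18 in the orange one.

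**Figure D2:**
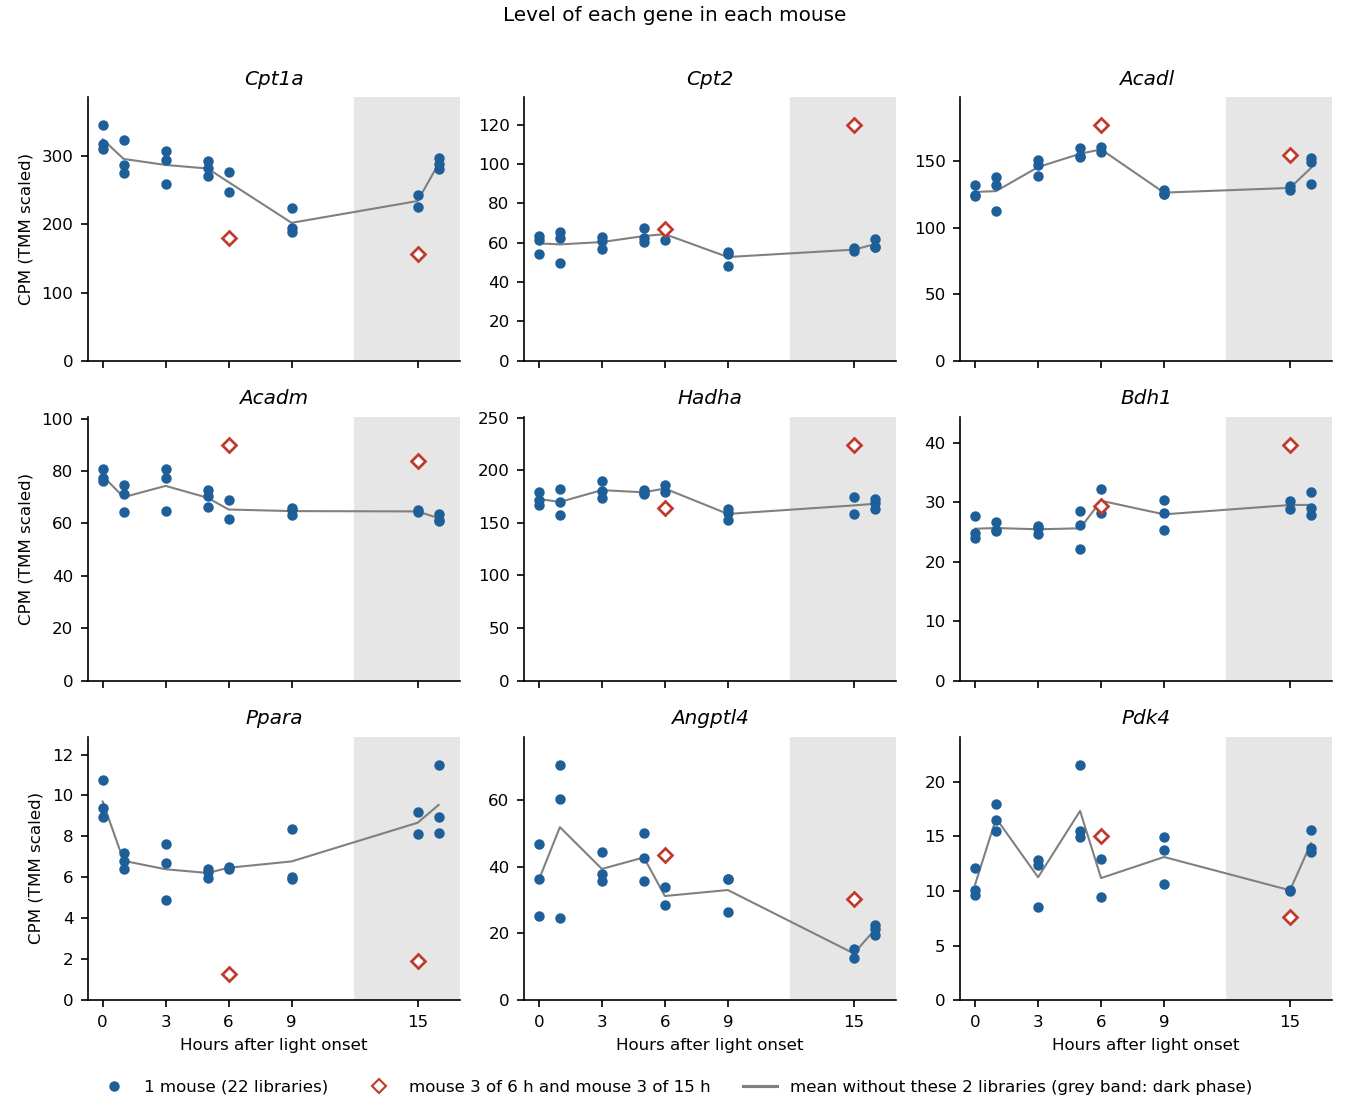
Each panel shows 1 gene, with hours after light onset on the x axis and TMM-scaled CPM on the y axis, starting at 0. Filled points are mice of the 22 libraries, open diamonds are mouse 3 of 6 h and mouse 3 of 15 h, the line joins the means of the 22 libraries, and the grey band is the dark phase. Cpt1a declines to 9 h, Angptl4 is low at 15 h and 16 h, and the diamonds lie off the points of their time for Ppara and Cpt1a at both times and for Cpt2 at 15 h.

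Levels between genes were compared per kilobase of the length given in the deposited table. Acadl (69.3 CPM per kb) and Cpt1a (63.8 CPM per kb) were the most abundant of the 9 genes, as means over 22 libraries. Cpt2 (24.8), Hadha (19.7) and Acadm (17.6) formed a middle range, and Angptl4 (10.5), Bdh1 (7.00), Pdk4 (3.79) and Ppara (1.97 CPM per kb) lay below it. This order depends on the length in the table. Hadha was at 172 CPM with a length of 8730 bases, and Acadl at 139 CPM with 2005 bases. The muscle isoform of the entry enzyme, Cpt1b, was too low to be tested, at up to 0.59 CPM as the mean of any time. Gm44502, on the same strand, shares 81.4% of the exonic bases of Cpt1b, and reads there may not have been counted for Cpt1b, so its level is uncertain.

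Over all 24 libraries, 0 of the 9 genes were called as varying over time by edgeR's quasi-likelihood test with Benjamini-Hochberg adjustment over all genes tested (a call is an adjusted p under 0.05), against 1.08% of all genes. At an unadjusted p under 0.05 there were 4 (17.0% of all genes), and DESeq2 called 4 (10.7% of all genes with an adjusted p). A 24 h component, a fitted cosine of 24 h period, was called in 2 of 9 (Cpt1a and Angptl4), against 1.67% of all genes. Night and day differed in 1 of 9 (Angptl4), against 1.39%. Of 63 pairs of a gene and a later time compared with 0 h, 1 was called (Cpt1a at 9 h), against 0.223% of all such pairs.

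Over the 22 libraries, 6 of the 9 genes were called over time (Cpt1a, Acadl, Acadm, Ppara, Angptl4 and Pdk4), against 16.0% of all genes. A 24 h component was called in 4 (Cpt1a, Acadm, Ppara and Angptl4), against 6.36%, and a night to day difference in 2 (Angptl4 and Ppara), against 4.67%. Of the 63 pairs with 0 h, 8 were called, against 2.57% of all pairs. The 7 comparisons with 0 h share the same 3 mice. Rod markers were higher at 0 h, at 2121 to 3430 CPM in sum, than at any later time (262 to 1871 CPM in the 22 libraries), and 0 of 8 rod markers were called over time. Their part in the differences from 0 h was not tested. In tissue RNA, fewer cells of a type and less RNA per cell cannot be told apart.

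**Figure D3:**
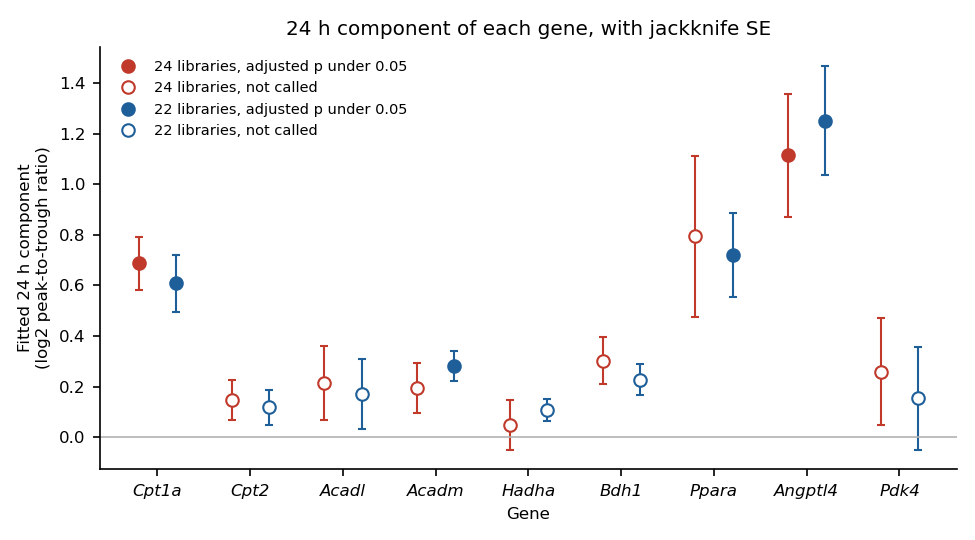
The fitted 24 h component of each gene (x axis) is given as the log2 ratio of peak to trough (y axis), with bars of 1 jackknife SE, over 24 libraries (red) and 22 libraries (blue), filled where the adjusted p is under 0.05. Angptl4 has the highest ratio in both fits (1.11 and 1.25), and Cpt1a and Angptl4 are the genes filled in both.

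Cpt1a (ENSMUSG00000024900, chr19:3323301-3385732, plus strand; mm10 here and below) was at 318, 345 and 311 CPM in mice 1, 2 and 3 at 0 h and at 288, 276 and 324 CPM at 1 h. It stood at 308, 259 and 295 CPM at 3 h, 271, 293 and 282 CPM at 5 h and 277, 247 and 180.2 CPM at 6 h. Values were 195, 189 and 224 CPM at 9 h, 243, 226 and 157 CPM at 15 h and 289, 282 and 297 CPM at 16 h. All 3 mice of 9 h were below all mice of 0, 1, 3, 5 and 16 h, and all 3 mice of 16 h were above those of 15 h and 9 h. In the 22 libraries the means ranged from 325 ± 18.1 CPM (SD, n = 3) at 0 h to 202 ± 19.0 CPM (SD, n = 3) at 9 h, a 1.60-fold range. Neighbouring times in the order of the means overlapped, except 6 h against 15 h and 15 h against 9 h.

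The fitted 24 h component of Cpt1a gave a log2 ratio of peak to trough of 0.69 (SE 0.10, adjusted p = 0.0211) over 24 libraries and 0.61 (SE 0.11, adjusted p = 0.000538) over 22, with fitted peaks 22.6 h (SE 0.78) and 22.3 h (SE 0.55) after light onset. No sample was taken in the last 8 h of the cycle, so these peaks lie outside the sampled hours. Over 24 libraries this call was lost when 0 h was left out (adjusted p = 0.219), or mouse 2 of 0 h alone (0.0628), mouse 1 of 9 h (0.0569) or mouse 2 of 9 h (0.0592). Over the 22 it held when any further library was left out. Against 0 h, Cpt1a fell by 0.68 on the log2 scale at 9 h over 24 libraries (SE 0.15, adjusted p = 0.0409). This call was lost in 17 of 24 fits without 1 library (highest adjusted p = 0.20, without mouse 1 of 9 h). It was kept without any mouse of 15 h, without mouse 1 or mouse 3 at 6 h, mouse 2 at 5 h or mouse 3 at 16 h. The call was also lost with no filter on low counts (adjusted p = 0.0836) and with the replicate number as a block (0.0518). Over the 22 the difference was -0.69 (SE 0.08, adjusted p = 5.29e-06) at 9 h and held in all 22 fits without a further library. It was -0.48 (SE 0.09, adjusted p = 0.00533) at 15 h, where 2 mice remain and the call was lost without mouse 1 (adjusted p = 0.0678) or mouse 2 (0.135). The test over time gave adjusted p = 0.0715 over 24 libraries and adjusted p = 7.71e-05 over 22. At 9 h, where Cpt1a was lowest, markers of macrophages and mast cells were higher (2375 to 2791 CPM in sum) than in most of the 22 libraries at other times (1922 to 2406 CPM). They summed to 3217 CPM in mouse 3 of 6 h and 2777 CPM in mouse 3 of 15 h. Choroid endothelium markers summed to 456 to 670 CPM at 9 h, within 271 to 670 CPM over the 22 libraries. Those of melanocytes and Schwann cells summed to 4672 to 5684 CPM at 9 h, within 4672 to 7023 CPM. The part of any of these lists in the result was not tested.

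Cpt2 (ENSMUSG00000028607, chr4:107903981-107923610, minus strand) ranged from 48.3 to 67.5 CPM in the 22 libraries. Its mean was highest at 6 h, at 64.4 ± 4.08 CPM (SD, n = 2), and lowest at 9 h, at 52.8 ± 3.94 CPM (SD, n = 3), a 1.22-fold range. No edgeR test over the 24 or the 22 libraries called it: the test over time gave adjusted p = 0.572 over 24 libraries and 0.268 over 22. The partner enzymes of the shuttle thus had their lowest means at the same hour, with a called difference in Cpt1a alone, and whether their courses differ was not tested.

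RefSeq promoters, 250 bases before to 50 after a gene's start in GRCm38.p6, were at hand for 8 of the 9 genes (9 windows, of which Bdh1 had a pair), and Angptl4 was not among them. The hexamer AGGTCA, the core that PPAR and other nuclear receptors bind, was searched on both strands and found in the windows of Cpt1a and Acadm. Of all 32817 promoters of the same length, 16.3% hold it. The windows of these genes are shown up to the start because they are the only ones of the 9 with the hexamer, which is in capitals and reads TGACCT on the printed strand.
Cpt1a: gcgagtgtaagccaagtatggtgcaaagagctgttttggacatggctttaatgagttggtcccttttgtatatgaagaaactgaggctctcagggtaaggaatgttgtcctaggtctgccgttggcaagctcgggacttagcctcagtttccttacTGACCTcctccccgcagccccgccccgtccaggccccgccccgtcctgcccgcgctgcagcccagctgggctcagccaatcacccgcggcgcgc
Acadm: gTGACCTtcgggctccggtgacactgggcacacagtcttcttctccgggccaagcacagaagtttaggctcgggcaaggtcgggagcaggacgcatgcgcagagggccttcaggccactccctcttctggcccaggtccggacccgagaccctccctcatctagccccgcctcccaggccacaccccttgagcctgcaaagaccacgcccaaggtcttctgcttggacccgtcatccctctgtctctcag
The stretch of Cpt1a is chr19:3323051-3323300 on the plus strand, with the first base of the hexamer 94 bases before the start. That of Acadm is chr3:153944644-153944893 on the minus strand, with the hexamer 249 bases before the start. A repeat of AGGTCA with 1 base between, the form PPAR binds with its partner RXR, was in 0 of the 9 windows and in 0.0396% of all promoters. The E-box of clock factors, CACGTG, was in 0 of 9 (7.15% of all), as were the D-box forms TTATGTAA (0.935%) and TTACGTAA (0.119%). A hexamer match describes letters in a window and not a bound site.

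Among the enzymes that shorten the chain, Acadl (ENSMUSG00000026003, chr1:66830839-66863277, minus strand), the long-chain acyl-CoA dehydrogenase, was at 132, 124 and 124 CPM in mice 1, 2 and 3 at 0 h, 132, 113 and 138 CPM at 1 h and 151, 138 and 147 CPM at 3 h. It was at 159.6, 153 and 154 CPM at 5 h and 157, 161 and 177 CPM at 6 h. At 9 h it was at 125, 128 and 126 CPM, at 15 h 131, 128 and 155 CPM and at 16 h 149, 133 and 153 CPM. Every mouse of 5 h and 6 h was above every mouse of 0, 1, 3, 9 and 16 h, and above mice 1 and 2 of 15 h. Over 22 libraries it varied over time (adjusted p = 0.003, against 0.115 over 24), and this call held without any further library. It rose from 0 h to 5 h by 0.29 (SE 0.07, adjusted p = 0.0169) on the log2 scale and to 6 h by 0.32 (SE 0.08, adjusted p = 0.0227). The 5 h call was lost without mouse 2 or 3 of 0 h or mouse 1 of 5 h (adjusted p = 0.0671, 0.0585 and 0.0784), and the 6 h call without mouse 2 or 3 of 0 h or mouse 1 or 2 of 6 h (0.0629, 0.0725, 0.0938 and 0.152). RPE markers were also higher in sum at 5 h and 6 h (40414 to 45604 CPM) than at 0, 1 and 3 h (32665 to 40098 CPM) in the 22 libraries. At 3 h, where Acadl was at 138 to 151 CPM, the sum was 32665 to 36315 CPM. At 9 h the sum was 35786 to 40337 CPM and the mean of Acadl 126 CPM. In the 22 libraries they were 36118 to 39058 CPM and 130 CPM at 15 h. At 16 h they were 39363 to 47643 CPM and 145 CPM. The part of these markers in the rise was not tested.

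Acadm (ENSMUSG00000062908, chr3:153922357-153944632, minus strand), the medium-chain acyl-CoA dehydrogenase, was at 77.2, 80.8 and 76.3 CPM at 0 h in mice 1, 2 and 3, at 71.1, 74.6 and 64.3 CPM at 1 h and at 80.9, 77.2 and 64.8 CPM at 3 h. Its values were 70.5, 72.7 and 66.1 CPM at 5 h, 61.6, 69.0 and 89.9 CPM at 6 h and 65.1, 65.9 and 63.1 CPM at 9 h. They were 64.2, 64.9 and 83.7 CPM at 15 h and 61.4, 61.0 and 63.6 CPM at 16 h. All mice of 0 h were above all mice of 9 h and 16 h. Over the 22 libraries Acadm was called over time (adjusted p = 0.0292) and for a 24 h component, with a log2 ratio of 0.28 (SE 0.06, adjusted p = 0.0139) and a fitted peak 0.3 h (SE 0.77) after light onset. The 24 h call held without any further library, and the call over time was lost in 9 of 22 such fits: those without any mouse of 9 h, without mouse 1 or 2 of 0 h or 16 h, and without mouse 1 at 5 h or 15 h (highest adjusted p = 0.0947, without mouse 2 of 0 h). Differences from 0 h of -0.27 (SE 0.08, adjusted p = 0.0285) at 9 h and -0.33 (SE 0.08, adjusted p = 0.0211) at 16 h were each lost in 5 of 22 such fits, those without mouse 1 or 2 of 0 h or any mouse of the later time (highest adjusted p = 0.124 and 0.11). Over 24 libraries the tests gave adjusted p = 0.546 over time and 0.428 for the component.

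Acadl and Acadm act on long and medium chains in the same cycle, and their highest means were at different hours, 6 h for Acadl and 0 h for Acadm. Hadha (ENSMUSG00000025745, chr5:30118304-30155162, minus strand), which carries out the hydration and dehydrogenation steps after them, ranged from 153 to 189.6 CPM in the 22 libraries. Its highest mean was 183 ± 4.33 CPM (SD, n = 2) at 6 h and its lowest 159 ± 5.54 CPM (SD, n = 3) at 9 h, a 1.15-fold range. The test over time gave adjusted p = 0.733 over 24 libraries and 0.184 over 22, and no pair of neighbouring times in the order of its means was without overlap. With sample quality weights, limma-voom called it over time (adjusted p = 0.0124), as it did 48.5% of all genes. Another annotated gene, Garem2, shares 0.859% of the exonic bases of Hadha, and the libraries do not mark strand.

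Bdh1 (ENSMUSG00000046598, chr16:31422280-31458901, plus strand) ranged from 22.1 to 32.3 CPM in the 22 libraries. Its mean was 30.3 ± 2.91 CPM (SD, n = 2) at 6 h, 29.6 ± 1.96 CPM (SD, n = 3) at 16 h and 25.5 ± 0.662 CPM (SD, n = 3) at 3 h. Neighbouring times in the order of the means overlapped throughout. No edgeR test called it (over time, adjusted p = 0.301 over 24 libraries and 0.228 over 22), while limma-voom with sample quality weights, which calls 48.5% of all genes over time, did so (adjusted p = 0.00781). The antisense gene Gm15743 overlaps 13.7% of the exonic bases of Bdh1, so its counts are less certain.

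Ppara (ENSMUSG00000022383, chr15:85734983-85802819, plus strand), the receptor, had the lowest level of the 9 genes and counts of 20 to 161 per library. At 0 h it was at 9.41, 10.8 and 8.95 CPM in mice 1, 2 and 3, at 1 h 6.79, 7.21 and 6.43 CPM, at 3 h 7.61, 4.90 and 6.68 CPM and at 5 h 6.42, 6.25 and 5.97 CPM. It was at 6.52, 6.41 and 1.26 CPM at 6 h and 5.94, 6.04 and 8.36 CPM at 9 h. At night the values were 8.13, 9.20 and 1.89 CPM at 15 h and 8.93, 8.18 and 11.5 CPM at 16 h. In the 22 libraries all mice of 0 h were above all mice of the day, and 0, 15 and 16 h formed an upper group of means with 1 h the next below and not overlapping it.

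Over 24 libraries Ppara was called by no edgeR test: night minus day was 0.36 (SE 0.26, adjusted p = 0.487) and the test over time gave adjusted p = 0.634. Over the 22, night was higher than day by 0.47 (SE 0.11, adjusted p = 0.0132) on the log2 scale, with 8.13 to 11.5 CPM at night (n = 5) and 4.90 to 8.36 CPM by day (n = 14), which overlap. The 24 h component had a log2 ratio of 0.72 (SE 0.17, adjusted p = 0.0111) and a fitted peak 18.7 h (SE 0.88) after light onset, and the test over time gave adjusted p = 0.0216. Against 0 h, 5 h was called, at -0.64 (SE 0.18, adjusted p = 0.0444). Over 24 libraries limma-voom with sample quality weights called it between night and day (0.47, adjusted p = 0.00339), for the 24 h component (adjusted p = 0.0436) and over time (adjusted p = 0.00483). Leaving out 1 further library ended the night call without mouse 2 of 15 h (adjusted p = 0.113) or mouse 3 of 16 h (0.0557), ended the call over time without mouse 2 of 0 h (0.0575), and ended the 5 h call in 13 of 22 fits (highest 0.156), those without any mouse of 0 h or 5 h, mouse 1 or 2 of 1, 6 or 15 h, or mouse 1 of 16 h. The 24 h call held in all 22.

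Angptl4 (ENSMUSG00000002289, chr17:33773750-33781575, minus strand) is secreted and blocks lipoprotein lipase, which frees fatty acids from circulating lipoproteins. It was at 25.2, 36.3 and 46.8 CPM in mice 1, 2 and 3 at 0 h, 60.3, 24.7 and 70.5 CPM at 1 h and 44.3, 35.8 and 37.8 CPM at 3 h. By day it continued at 35.6, 42.7 and 49.97 CPM at 5 h, 28.5, 33.9 and 43.5 CPM at 6 h and 36.3, 26.4 and 36.3 CPM at 9 h. At night it was at 12.7, 15.4 and 30.4 CPM at 15 h and 21.4, 22.4 and 19.5 CPM at 16 h. Of the 6 night mice, 5 were below all 15 day mice, and the sixth was mouse 3 of 15 h. The spread was widest at 1 h, where mouse 2 was at 24.7 CPM.

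Night was lower than day over 24 libraries, with a log2 difference of -0.98 (SE 0.20, adjusted p = 0.0163) and means of 20.3 ± 6.17 CPM at night (SD, n = 6) and 40.4 ± 12.3 CPM by day (SD, n = 15). Over the 22 the difference was -1.18 (SE 0.22, adjusted p = 0.00447), and the groups did not overlap (at most 22.4 CPM at night and at least 24.7 CPM by day). Of all genes, 0.836% had night and day values without overlap in these 22 libraries and 0.26% in the 24, and among the 9 genes Angptl4 alone did so in the 22 and none in the 24. The call over 24 libraries was lost without mouse 1 or mouse 3 of 16 h (adjusted p = 0.0543 and 0.0637), and that over the 22 without mouse 1 of 15 h (0.0561). The 24 h component had a log2 ratio of 1.11 (SE 0.24, adjusted p = 0.014) over 24 libraries and 1.25 (SE 0.22, adjusted p = 0.00647) over 22, with a fitted peak 2.9 h after light onset in both (SE 1.07 and 0.99). It was lost only without 15 h and 16 h (adjusted p = 0.663) among all alternatives run for it. The test over time was called over the 22 (adjusted p = 0.0242) and was lost without mouse 1 of 1 h, mouse 1 or 2 of 15 h or mouse 3 of 16 h (highest adjusted p = 0.089, without mouse 1 of 15 h).

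Adipocytes and muscle also make Angptl4. Markers of adipocytes (5 of 6 tested) summed to 4.70 to 8.69 CPM at night and 2.91 to 23.6 CPM by day in the 22 libraries, and those of striated muscle (10 of 10 tested) to 273 to 989 CPM at night and 204 to 1565 CPM by day. Within each list the median night minus day log2 difference over its tested genes was -0.51 for adipocytes and -0.26 for striated muscle, in the direction of Angptl4, and -0.69 for rods. It was -0.26 for choroid endothelium, where 3 of 6 genes were called over time and 0 between night and day, and -0.21 for cones. Among the other lists it ran from -0.09 (red blood cells) to 0.13 (inner retina and Muller glia). The night and day ranges of the adipocyte, muscle and endothelium sums overlap. In the adipocyte, muscle and rod lists 0 genes were called over time. The part of any list in the difference was not tested. No gene of the adipocyte, muscle and rod lists was at 0 in every library.

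Pdk4 (ENSMUSG00000019577, chr6:5483351-5496309, minus strand) phosphorylates and switches off pyruvate dehydrogenase, which spares glucose when fatty acids are burnt. Its level was 10.1, 12.1 and 9.64 CPM at 0 h in mice 1, 2 and 3, 15.5, 18.0 and 16.4 CPM at 1 h and 12.4, 8.52 and 12.9 CPM at 3 h. At 5 h it was 15.5, 14.9 and 21.5 CPM, at 6 h 9.40, 12.95 and 15.1 CPM and at 9 h 10.6, 13.7 and 15.0 CPM. At 15 h it was 10.1, 9.99 and 7.66 CPM and at 16 h 13.5, 15.6 and 13.96 CPM. All mice of 1 h, 5 h and 16 h were above all mice of 0 h and 15 h, and all mice of 3 h were below all mice of 1 h and 5 h. The observed values thus had more than 1 maximum, and single later times were tested against 0 h and not against each other. Over 22 libraries it was called over time (adjusted p = 0.00825, against 0.103 over 24), in all 22 fits without a further library as well, and the 24 h component was not called (adjusted p = 0.885). The rise from 0 h to 5 h was 0.71 (SE 0.17, adjusted p = 0.0193) on the log2 scale, lost without mouse 1 or 3 of 0 h or mouse 3 of 5 h (adjusted p = 0.0774, 0.0775 and 0.131). Striated muscle markers, from a tissue rich in Pdk4, summed to 558 to 1565 CPM at 1 h, 780.0 to 975 CPM at 5 h and 600.1 to 759 CPM at 0 h. In the 22 libraries they summed to 289 to 1385 CPM at 3 h, 233 to 426 CPM at 6 h and 204 to 540 CPM at 9 h. At night the sums were 273 to 535 CPM at 15 h and 301 to 989 CPM at 16 h. The part of these markers in the result was not tested.

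The 9 genes did not share an hour of maximum in the means of the 22 libraries. The highest mean was at 6 h for 4 genes (Cpt2, Acadl, Hadha and Bdh1), at 0 h for 3 (Cpt1a, Acadm and Ppara), at 1 h for Angptl4 and at 5 h for Pdk4. The lowest mean was at 9 h for 4 genes (Cpt1a, Cpt2, Acadl and Hadha) and at 15 h for 2 (Angptl4 and Pdk4). The ratio of highest to lowest mean was 3.70 for Angptl4, 1.72 for Pdk4, 1.60 for Cpt1a and 1.56 for Ppara, and 1.15 to 1.26 for the remaining 5. These orders describe the means and carry no test.

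Around these genes, 9 lists of 120 further genes covered lipid uptake and droplets, the carnitine shuttle, mitochondrial and peroxisomal oxidation, ketone metabolism, PPAR receptors and coactivators, other PPAR targets, pyruvate dehydrogenase, and malonyl-CoA with fatty acid synthesis. Of these, 114 were tested. Over 24 libraries 1 was called over time (Prkab1; 1.08% of all genes), 5 had a 24 h component (Acsl3, Dgat2, Acaca, Prkab1 and Fgf21; 1.67% of all genes) and 3 differed between night and day (Dgat2, Prkab1 and Fgf21; 1.39%). At an unadjusted p under 0.05, 30 passed over time (17.0% of all genes), and DESeq2 called 22 (10.7%). Over the 22 libraries 42 were called over time, 21 with their largest difference from 0 h upward and 21 downward, against 16.0% of all genes, of which 1393 were upward and 1489 downward. A 24 h component was called in 17 (6.36% of all genes) and a night to day difference in 10 (4.67%). The counts over time given for single lists below are read against the same 16.0%.

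**Figure D4:**
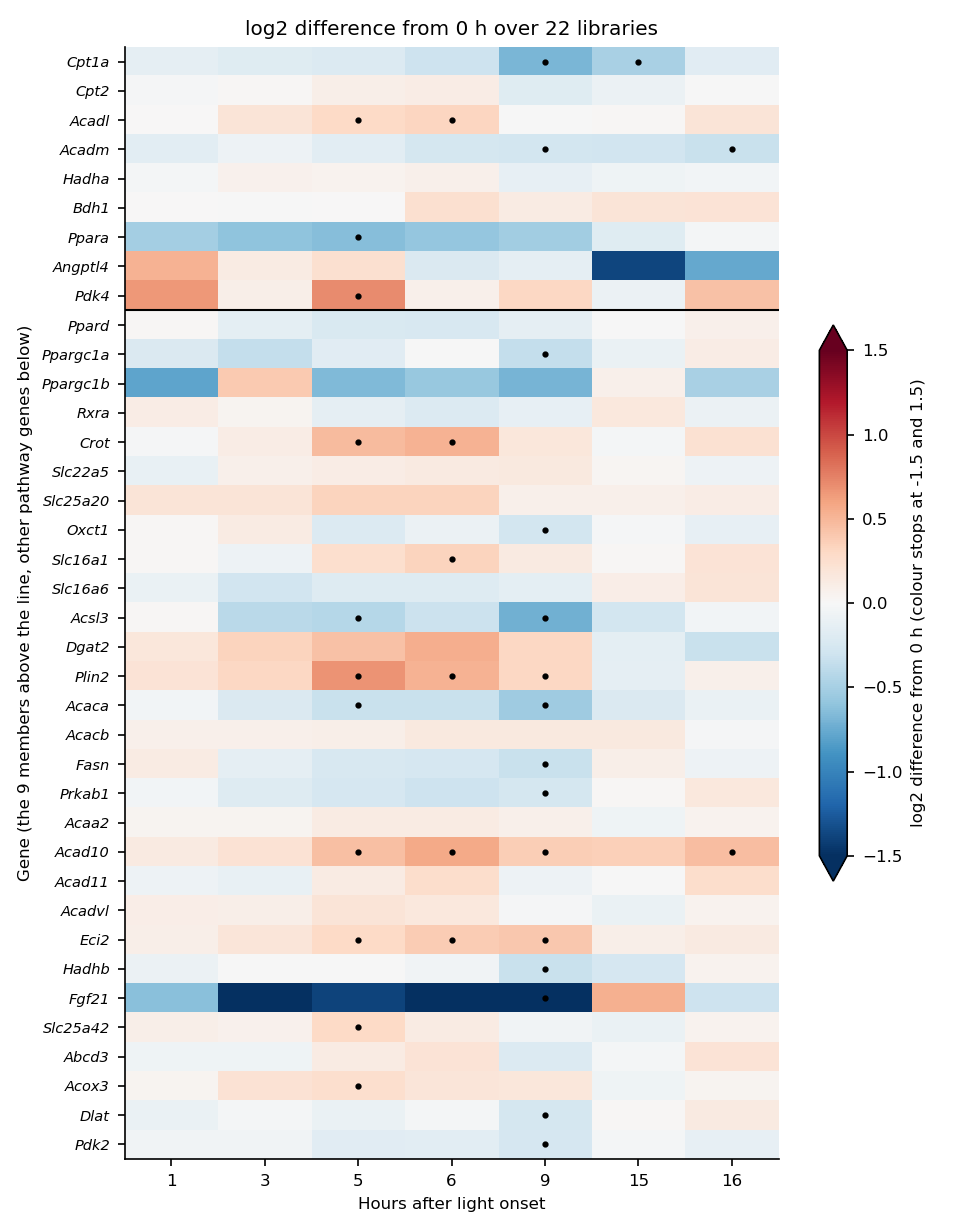
Colours give the log2 difference from 0 h over 22 libraries for the 9 genes (above the line) and 29 named genes of the surrounding lists (below it, y axis), at each later time (x axis, hours after light onset), and dots mark an adjusted p under 0.05. Acadl, Crot and Plin2 are higher at 5 h and 6 h, and Cpt1a, Acsl3, Acaca and Fasn are lower at 9 h.

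In the list of lipid uptake, activation and droplets, 10 of 21 tested genes were called over time in the 22 libraries, 7 upward and 3 downward. Plin2, which coats lipid droplets, was at 91.0 ± 4.43 CPM at 0 h (SD, n = 3) and 146 ± 3.37 CPM at 5 h (SD, n = 3), a log2 difference of 0.68 (SE 0.08, adjusted p = 1.94e-05). Its night level was below the day level by a log2 difference of -0.44 (SE 0.05, adjusted p = 1.43e-05), and over 24 libraries, where mouse 3 of 15 h stood at 159.6 CPM, it was not called, at -0.27 (SE 0.11, adjusted p = 0.231). Dgat2, which makes triglyceride, was lower at night in both fits, with log2 differences of -0.55 (SE 0.11, adjusted p = 0.0108) over 24 libraries and -0.60 (SE 0.11, adjusted p = 0.00128) over 22. Acsl3, which activates fatty acids at the droplet, fell from 111 ± 20.8 CPM at 0 h to 68.0 ± 3.21 CPM at 9 h (SD, n = 3 each), a log2 difference of -0.72 (SE 0.11, adjusted p = 0.000215) over 22 libraries.

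In the carnitine shuttle 2 of 5 tested genes were called over time, both upward. Crot, the peroxisomal octanoyltransferase, rose to 6 h by 0.52 (SE 0.10, adjusted p = 0.00535), and Slc22a5, the carnitine importer, was called with a largest difference of 0.15 at 9 h (adjusted p over time = 0.0399), a call lost in 14 of 22 fits without a further library. Slc25a20, the carnitine carrier of the inner membrane, was not called (adjusted p over time = 0.111).

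In mitochondrial oxidation 5 of 16 were called over time, 4 upward. Eci2, an enoyl-CoA isomerase, was higher at 9 h by 0.40 (SE 0.08, adjusted p = 0.00208), and Acad10 at 6 h by 0.57 (SE 0.12, adjusted p = 0.00839). Hadhb, the partner subunit of Hadha, was lower at 9 h, with a log2 difference of -0.33 (SE 0.09, adjusted p = 0.0198). Acadvl (adjusted p = 0.412) and Acaa2 (0.723) were not called over time, and 42.9% of the exonic bases of Acadvl overlap Dvl2. In peroxisomal oxidation 5 of 16 were called, 3 upward. Among the 5 was Acox3, a peroxisomal acyl-CoA oxidase, which was lower at night than by day, with a log2 difference of -0.19 (SE 0.04, adjusted p = 0.0106).

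In ketone metabolism 4 of 10 genes were called over time in the 22 libraries, 2 upward and 2 downward. Slc16a1, the monocarboxylate carrier that moves ketone bodies and lactate, was higher at 6 h by 0.34 (SE 0.09, adjusted p = 0.0458). Oxct1, which starts ketone use, was lower at 9 h, with a log2 difference of -0.27 (SE 0.09, adjusted p = 0.0485), and BC037032 overlaps 12.6% of its exonic bases. Slc16a6, another monocarboxylate carrier, was higher at night by 0.33 (SE 0.06, adjusted p = 0.000754), with 23.5% of its exonic bases shared with other genes. RPE markers were higher at 5 h and 6 h too, as given for Acadl.

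Of the PPAR receptors and coactivators, 4 of 12 were called over time, 1 upward and 3 downward. Ppargc1a, a coactivator of oxidative genes, was higher at night by 0.23 (SE 0.06, adjusted p = 0.0373), which was lost in 10 of 22 fits without a further library. Ppard, the receptor related to Ppara, had a 24 h component with a log2 ratio of 0.34 (SE 0.10, adjusted p = 0.0437) and a fitted peak 19.1 h after light onset, lost in 16 of 22 such fits. Of other PPAR targets, 2 of 9 tested were called over time. Fgf21, a hormone gene with only 0 to 40 counts per library, was higher at night by 2.14 (SE 0.40, adjusted p = 0.00692) over 24 libraries and 2.05 (SE 0.43, adjusted p = 0.00443) over 22, on fitted values that include a library at 0 counts at 9 h. Slc25a42, a carrier of coenzyme A, was higher at 5 h by 0.30 (SE 0.08, adjusted p = 0.0341).

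Of pyruvate dehydrogenase and its regulators, 2 of 12 were called over time, both downward. Pdk2, a kinase related to Pdk4, was lower at 9 h, with a log2 difference of -0.25 (SE 0.06, adjusted p = 0.00948). So was Dlat, the second enzyme of the complex, at -0.26 (SE 0.07, adjusted p = 0.0281). Without a further library, the call over time was lost in 15 of 22 fits for Pdk2 (highest adjusted p = 0.119) and in 1 for Dlat (0.0695). Of malonyl-CoA and fatty acid synthesis, 8 of 13 were called over time, 1 upward and 7 downward, against 16.0% of all genes. All 5 genes of this list with a 24 h component peaked between 12 h and 24 h, as did 652 of the 1149 such genes among all genes tested. Acaca, which makes malonyl-CoA, the inhibitor of Cpt1a, was at 77.1 ± 4.005 CPM at 0 h and 53.5 ± 4.55 CPM at 9 h (SD, n = 3 each), a log2 difference of -0.53 (SE 0.08, adjusted p = 0.000223). Fasn was lower at 9 h, with a log2 difference of -0.34 (SE 0.08, adjusted p = 0.0102), and Prkab1, a subunit of the kinase that inhibits Acaca, was higher at night by 0.31 (SE 0.05, adjusted p = 0.00382) over 24 libraries and 0.30 (SE 0.05, adjusted p = 0.0005) over 22. Acacb, the mitochondrial form of Acaca, was not called (adjusted p over time = 0.391).

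Some of these calls rested on single libraries. With a further library left out of the 22, the differences from 0 h given for Plin2, Acsl3, Eci2, Pdk2, Acaca and Fasn and the night to day differences of Plin2, Dgat2, Slc16a6, Fgf21 and Prkab1 were called in all 22 fits. Those from 0 h were lost in 1 fit for Crot, 2 for Acad10, 3 for Hadhb, 4 for Dlat and 5 for Slc25a42, and that of Acox3 between night and day in 2. Slc16a1 at 6 h was lost in 11 fits (highest adjusted p = 0.23) and Oxct1 at 9 h in 15 (highest adjusted p = 0.214). Medians of the largest difference from 0 h, without sign, were 0.33 for the 9 genes, 0.27 for the 114 and 0.38 for all genes tested in the 22 libraries.

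For the 3 genes of the 9 with the lowest p over time, the genes with the most similar log2 CPM across the 22 libraries were found among 11994 genes whose mean reached 5 CPM. The libraries share the hours, so these correlations describe courses and carry no test. Nearest to Cpt1a were Dgkb (Pearson r = 0.91), Rdh11 (0.90), Rragd (0.89), Elovl7 (0.89) and Slc20a2 (0.89), with fitted peaks from 21.7 h to 22.6 h, and Cpt2 was the closest of the 9 genes (0.59). For Acadl they included Degs1 (0.89), Psmb2 (0.85) and Mest (0.85), and the closest of the 9 was Cpt2 (0.70). Pdk4 had weaker neighbours, Cyp4b1 (0.74), Ucp3 (0.69), Pmp22 (0.66), Loxl4 (0.65) and Secisbp2 (0.65), and the closest of the 9 was Angptl4 (0.33).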

How the data were processed

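The authors deposited raw read counts per gene, in 1 column for each of the 24 mice. STAR, HTSeq and mm10 are named in the submitters' processing notes, and their settings are not given in the sources used here. RNA was total, and the kit named in the labels' protocols does not mark strand. Overlap with other genes was read from GENCODE vM21. Genes were kept with filterByExpr (minimum count 10), which left 18065 genes and 99.9% of counts, and were fitted with TMM scaling and robust quasi-likelihood models in edgeR 4.0.16 (R 4.3.3). Tests were an F test over 7 differences from 0 h, an F test of cosine and sine terms of 24 h, night (6 libraries, or 5) against day (15, or 14), and each later time against 0 h. The last set 3 mice against 3, or 2 against 3 at 6 h and 15 h in the fit over 22 libraries. Benjamini-Hochberg adjustment ran over the 18065 genes within each test. The fit without mouse 3 of 6 h and mouse 3 of 15 h kept the same genes. SEs of the 24 h component come from a jackknife. Log2 differences are from edgeR, and CPM are TMM-scaled. The labels give the 3 libraries of a time as biological replicates. The lowest chi-square per degree of freedom over 276 pairs of libraries was 5.85, so no pair differed by counting noise alone. This value cannot exclude 2 preparations from 1 mouse. The edgeR tests were also run on simulated counts with cosine courses. No simulated library stood apart, so that run does not cover the effect of mouse 3 of 6 h and mouse 3 of 15 h.

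The 9 genes, the lists, the tests and the 2 libraries were chosen with earlier results of these data known. Beside the 9 genes, 12 genes of the lists were always named, and up to 3 called genes per list with the lowest adjusted p. Otherwise eligible genes, 4 in number, are not reported here, though counts over a list include any of its members among them. Alternatives were other size factors, no filter, DESeq2 1.42.0, limma-voom (limma 3.58.1) with and without sample weights, a replicate block, and leaving out libraries or times.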

Additional observations from a re-analysis of the deposited data

How the results depend on the processing

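Counts of calls moved with the 2 libraries left out, with DESeq2 and with sample quality weights, and the cause was not tested. For the 9 genes over time the count was 0 with 24 libraries, 6 with 22, 4 with DESeq2 and 8 with limma-voom with sample quality weights. For the 24 h component it was 2, and 4 with 22 libraries, 4 with weights and 1 without 0 h. Between night and day it was 1, and 2 and 3 with 22 libraries and with weights. Of the pairs with 0 h, 1 was called, 8 with 22 libraries, 0 with no filter, 3 with DESeq2 and 23 with weights. Of the 120 surrounding genes, those called over time numbered 1, then 42, 22 and 72 with 22 libraries, DESeq2 and weights; those with a 24 h component 5, then 17, 11 and 25, and 9 without 15 h and 16 h; and those differing between night and day 3, then 10, 5 and 28. DESeq2 size factors and limma-voom without weights left every one of these counts within 1.5 times. Of all genes, 195 were called over time with 24 libraries, 2882 with 22, 1930 with DESeq2 and 8766 with weights.

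Leaving out each of the 24 libraries in turn gave 0 to 4 of the 9 genes over time, 1 to 2 for the 24 h component, 0 to 2 between night and day and 0 to 4 pairs with 0 h, and for the surrounding genes 0 to 18, 4 to 15 and 2 to 12. Leaving out a further library of the 22, chosen after seeing the data, gave 4 to 6, 4 to 4, 1 to 2 and 3 to 9, and 33 to 42, 14 to 19 and 6 to 13. Counts over all genes are not given here for these fits.

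With the replicate number as a block, 0 of the 9 genes were called over time, 2 for the 24 h component, 1 between night and day and 0 pairs with 0 h (Cpt1a at 9 h was at -0.68, adjusted p = 0.0518), and of the surrounding genes 0 over time, 5 for the 24 h component and 3 between night and day. Of all genes, 143 were called over time, 266 for the 24 h component and 226 between night and day with this block. The labels do not say that the numbers pair the mice. Same-numbered libraries of different times had a median correlation of residuals of 0.016 (n = 84 pairs, 17 above 0.1, highest 0.535). For different numbers the median was -0.005 (n = 168 pairs, 30 above 0.1, highest 0.375). Of 24 libraries, 12 correlated best with their own number. These values are a hint from the data and not from the design, and they do not settle whether libraries are paired by number.

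With 3 mice per time, 1 day sampled and no sample between 9 h and 15 h or after 16 h, the tests concern a daily shape and not its recurrence. Ppara and Fgf21 rest on few counts. Genes with overlapping partners are less certain.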
